A study of Mus musculus with 31 samples.

Results

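The Ly6 genes described here are Ly6c2, Ly6c1, Ly6a, Ly6e, Ly6g and Ly6i, 6 of the 47069 genes in the deposited tables, chosen by symbol from a list and matched to the tables by Ensembl identifier. Their levels were read in 31 single cells from the right lung lobes of B6 Csf1r-GFP mice that were 10 weeks old and had undergone a sham thoracotomy, in which the chest cavity is opened, 7 days earlier. All 31 cells carried this 1 genotype and treatment, so the data hold no untreated or unoperated group. The cells were sorted as CD45+, Csf1r-GFP+ and F4/80+, and the sort label names Ly6G without a sign. The green fluorescent reporter is driven by the Csf1r gene, so cells without reporter signal fell outside the gate, and the labels name no animal. The 31 cells therefore count as 1 sample, cells are not replicates, and no p-value was computed.

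Ly6 proteins are small cell-surface proteins with a three-finger fold held by disulfide bonds, and most are tied to the membrane by a glycosylphosphatidylinositol (GPI) lipid anchor. Ly6c1 and Ly6c2 encode the antigen Ly6C, whose high surface level marks classical (inflammatory) mouse monocytes and falls as these become nonclassical monocytes or macrophages. Ly6a encodes Sca-1, best known from blood stem cells, endothelium and activated lymphocytes. Ly6g encodes the antigen used to sort neutrophils. Ly6e encodes a widely expressed, interferon-inducible protein that limits entry of several viruses, and Ly6i encodes a close relative of Ly6C and Sca-1.

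The 6 genes lie within 204 kb of chromosome 15 (GRCm38, GENCODE M21 coordinates), and Ly6c1 and Ly6c2 are near copies of each other. In map order they are Ly6e (ENSMUSG00000022587, 74955051 to 74959905, plus strand), Ly6i (ENSMUSG00000022586, 74979534 to 74983430, minus strand), Ly6a (ENSMUSG00000075602, 74994877 to 74998031, minus strand), Ly6c1 (ENSMUSG00000079018, 75044018 to 75048830, minus strand), Ly6c2 (ENSMUSG00000022584, 75108158 to 75111970, minus strand) and Ly6g (ENSMUSG00000022582, 75155240 to 75159126, plus strand). All are annotated as protein-coding. The coding frames of Ly6c2 and Ly6c1 are 393 bases each and differ at 9 bases (97.7% identity), with an identical run of 188 bases. Ly6c2 shared 78.1 to 81.6% of aligned coding bases with Ly6a, Ly6g and Ly6i and 50.2% with Ly6e. The first 300 coding bases of 3 members are shown because identical stretches, here and in the rest of the transcripts, limit how far reads can be assigned. Capitals in Ly6c2 and Ly6c1 mark the 7 bases of this stretch at which the pair differ, and capitals in Ly6g mark bases that differ from Ly6c2.
Ly6c2: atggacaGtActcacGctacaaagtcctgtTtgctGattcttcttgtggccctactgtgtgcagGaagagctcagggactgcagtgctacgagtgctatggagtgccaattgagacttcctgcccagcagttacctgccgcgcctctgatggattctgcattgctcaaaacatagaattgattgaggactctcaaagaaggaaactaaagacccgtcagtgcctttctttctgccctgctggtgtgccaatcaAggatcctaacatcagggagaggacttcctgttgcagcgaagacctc
Ly6c1: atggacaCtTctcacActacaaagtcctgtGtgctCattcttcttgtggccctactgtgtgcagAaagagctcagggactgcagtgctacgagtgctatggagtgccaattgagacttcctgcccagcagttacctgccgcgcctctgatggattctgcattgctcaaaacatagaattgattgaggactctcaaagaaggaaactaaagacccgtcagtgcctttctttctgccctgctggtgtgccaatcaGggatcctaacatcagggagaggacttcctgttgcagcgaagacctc
Ly6g: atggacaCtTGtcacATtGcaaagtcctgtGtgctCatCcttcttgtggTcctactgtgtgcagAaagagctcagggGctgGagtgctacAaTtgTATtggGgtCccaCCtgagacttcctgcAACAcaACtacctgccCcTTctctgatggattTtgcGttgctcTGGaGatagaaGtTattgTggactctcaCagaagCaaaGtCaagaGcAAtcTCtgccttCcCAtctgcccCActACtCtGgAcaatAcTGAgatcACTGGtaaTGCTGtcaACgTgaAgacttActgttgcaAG

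Reads of the Ly6C pair could be separated only in part. Of all windows of 50 bases in the annotated transcripts of Ly6c1, 32.8% also occurred in transcripts of other genes, against 14.5% for Ly6c2, 18.97% for Ly6a, 4.76% for Ly6i, 0.448% for Ly6g and 0% for Ly6e. With windows of 100 bases the shares were 10.1% for Ly6c1, 5.81% for Ly6c2, 1.45% for Ly6a and 0% for the other three. Most shared windows of Ly6c1 were shared with Ly6c2 (379 of its 1764 windows of 50 bases) and Ly6a (195). The sources used here do not give the read length. RSEM splits reads that match several genes, and it gave values that were not whole within 0.005 for Ly6c1 in 8 of the 9 cells with counts, for Ly6c2 in 8 of 11, for Ly6g in 3 of 7, for Ly6i in 3 of 6, for Ly6a in 2 of 9 and for Ly6e in 0 of 20. Counts that were not whole thus occurred for the pair Ly6c2 and Ly6c1 in the same 8 cells and for Ly6e in none. For Ly6g and Ly6i they also fell in the same 3 cells, A12, E7 and H4. Their counts there were 55.11 and 39.89, 122.61 and 82.39, and 65.04 and 77.96. Whether reads were split between Ly6g and Ly6i was not tested.

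The promoters of Ly6c1, Ly6c2 and Ly6g, the 3 members in the promoter table used here (RefSeq, GRCm38.p6), also resemble each other. The windows run from 250 bases before to 50 bases after an annotated start, and local alignments of 248 to 282 bases matched at 71.4 to 77.1%. They are printed because these genes were found in the same cells at unlike levels. Capitals mark GAGGAA on either strand, the core letters bound by PU.1, a transcription factor of myeloid cells. These letters occur in 28.3% of all 32851 promoter windows of the table, so a match is no more than a description.
Ly6c2, chr15:75111922-75112221, minus strand: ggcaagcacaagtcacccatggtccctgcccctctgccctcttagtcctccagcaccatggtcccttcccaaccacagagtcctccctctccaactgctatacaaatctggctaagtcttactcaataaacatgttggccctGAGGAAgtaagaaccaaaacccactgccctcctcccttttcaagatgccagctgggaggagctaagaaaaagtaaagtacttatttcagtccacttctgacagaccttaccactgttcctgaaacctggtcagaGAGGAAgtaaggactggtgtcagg
Ly6c1, chr15:75048788-75049087, minus strand: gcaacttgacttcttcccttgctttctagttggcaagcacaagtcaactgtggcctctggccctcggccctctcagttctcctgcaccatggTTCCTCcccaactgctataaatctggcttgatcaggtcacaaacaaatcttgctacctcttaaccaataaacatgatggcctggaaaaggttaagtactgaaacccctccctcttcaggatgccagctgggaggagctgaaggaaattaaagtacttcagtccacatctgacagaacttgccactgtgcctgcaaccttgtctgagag
Ly6g, chr15:75155011-75155310, plus strand: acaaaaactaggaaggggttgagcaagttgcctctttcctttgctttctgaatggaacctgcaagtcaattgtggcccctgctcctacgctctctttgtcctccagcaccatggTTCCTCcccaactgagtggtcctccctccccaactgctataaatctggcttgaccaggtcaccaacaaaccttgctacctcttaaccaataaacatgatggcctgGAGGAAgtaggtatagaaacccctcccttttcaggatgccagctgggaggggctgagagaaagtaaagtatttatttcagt

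Other letters differed between the windows. The TATA box letters TATAAA were in the printed windows of Ly6c1 (from base -143, counted from the start) and Ly6g (from base -99). They were in neither of the windows of Ly6c2, and they occur in 13.6% of all windows on either strand. Whether these letter matches act as a TATA box was not tested. CCAAT followed the same division as TATAAA, at base -95 in Ly6c1 and base -51 in Ly6g, against 37.4% of all windows. Another Ly6c1 window, not printed (75048614 to 75048913), held neither TATAAA nor CCAAT, so this division depends on the start used. TTNNGNAA, the core letters of C/EBP sites, was found in Ly6c2 and Ly6g and not in Ly6c1, against 40.7% of all windows. The interferon motifs searched, TTCNNNGAA (GAS) and the core of the interferon-stimulated response element (GAAA, any 2 bases, GAAA), occur in 8.3% and 3.44% of all windows, and neither was found in the windows of these 3 genes.

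The libraries differed in depth and make-up. Total expected counts per cell ranged from 120835 to 4059833. Lyz2, the lysozyme gene of myeloid cells, reached 1000 FPKM (fragments per kilobase of transcript, scaled to the mapped fragments of the cell) in 20 cells, with cell C7 just inside this minimum at 1229 FPKM and D10 just outside it at 553 FPKM. These 20 Lyz2-high cells had 521492 to 4059833 counts (median 1591648), of which 87.4 to 95.6% fell on nuclear protein-coding genes. Of the other 11 cells, 10 had 32.7 to 61.4% of counts on such genes, and F11 had 87.9% but 0 FPKM of Lyz2. Among the 20, a gene was called present at 1 FPKM or more, and by this rule Csf1r was present in 20, Ptprc (CD45) in 19 and Adgre1 (F4/80) in 15. No 2 libraries held identical counts.

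Almost all Ly6 signal lay in the Lyz2-high cells. In the 11 Lyz2-low cells Ly6c1, Ly6a, Ly6g and Ly6i were at 0 FPKM throughout, which leaves room for about 27.3% (a limit of 3 cells) of such libraries with the gene at 1 FPKM or more (exact upper limit 28.5%). Ly6c2 was present there in 1 cell (G3, 20.1 FPKM from 6 counts), and Ly6e in 2 (F2 at 208 FPKM and E5 at 44.9 FPKM). Over all 31 cells Ly6e was present in 20 (64.5%, exact Clopper-Pearson 95% interval 45.4 to 80.8%), Ly6c2 in 11 (35.5%, 19.2 to 54.6%), Ly6c1 in 9 (29.03%, 14.2 to 48.0%), Ly6a and Ly6g in 7 each (22.6%, 9.59 to 41.1%) and Ly6i in 6 (19.4%, 7.45 to 37.5%). The Lyz2-low cells were also shallower, at a median of 413337 counts, and the part of depth in these zeros was not tested. The intervals cover counting error over cells only.

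**Figure D1:**
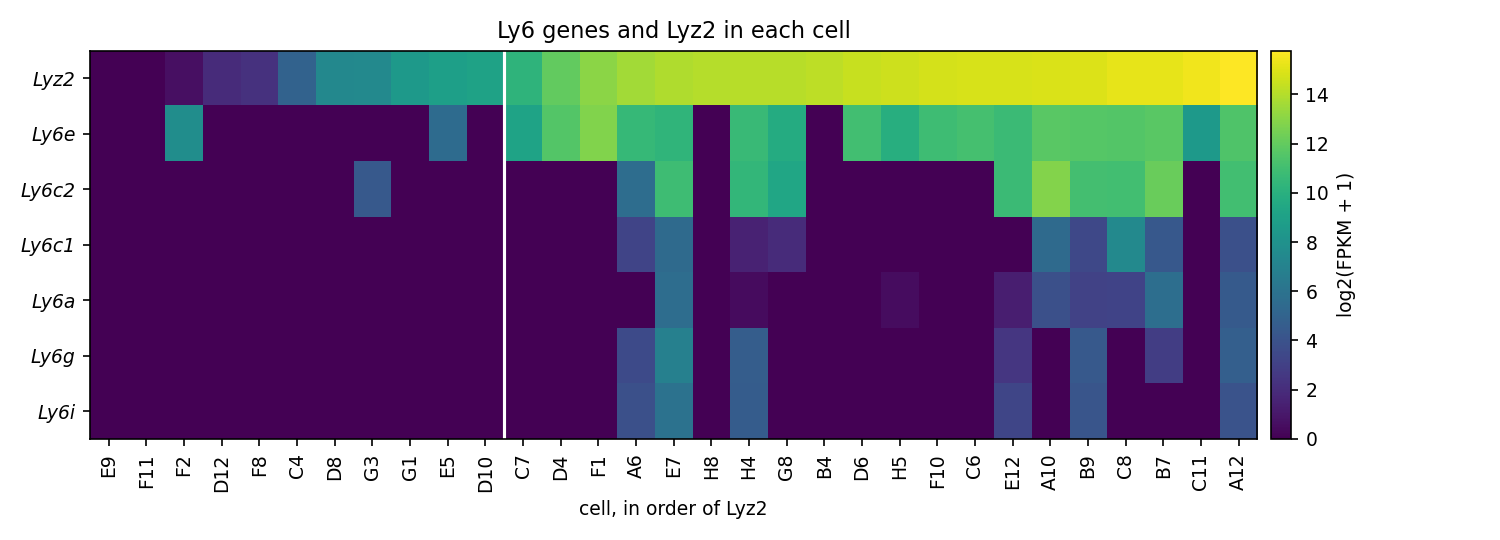
Level of Lyz2 and of the 6 Ly6 genes (rows) in each of the 31 cells (columns, in order of Lyz2), as log2(FPKM + 1) in colour; the white line separates the 11 Lyz2-low cells on the left from the 20 Lyz2-high cells. Ly6e fills most of the right side, while Ly6c2 fills 10 of its columns, of which 3 (A12, B9 and E7) also hold all of Ly6c1, Ly6a, Ly6g and Ly6i.

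Ly6e was the member found in the most cells. It was present in 18 of the 20 Lyz2-high cells (90%, 68.3 to 98.8%), from 362 FPKM in C11 to 6942 FPKM in F1, with a median of 1942 and a mean of 2263 ± 1521 FPKM (SD over 18 cells). Its rank by FPKM among all genes of a cell had a median of 99.5 over these 18 cells, and its lowest rank was 594. Of the 10818 genes present in any Lyz2-high cell, 2.9% were found in at least as many of them as Ly6e. The same share was 13.2% for Ly6c2, 15.7% for Ly6c1, 23.2% for Ly6a and for Ly6g, and 27.9% for Ly6i. The 2 exceptions, H8 and B4, listed Ly6e at 0 with 2568955 and 767318 total counts. In them 3 counts would have been 1.17 and 3.91 CPM (counts scaled to the library total), against at least 367 CPM in the 18 cells. H8 and B4 held no Ly6 gene of the 6, though their Lyz2 stood at 16627 and 18527 FPKM.

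Ly6c2 split the Lyz2-high cells into 10 that held it and 10 at 0 (50%, 27.2 to 72.8%). In the cells that held it the level was 48.6 FPKM in A6, 650.1 in G8, 1397 in H4, 1690.2 in E12, 1878 in E7, 2013 in A12, 2049.6 in C8, 2161 in B9, 4702 in B7 and 7311 in A10, for a mean of 2390.1 ± 2111 FPKM (SD over 10 cells). A6 lay far below the other 9 cells and A10 highest. The 10 cells at 0 had 767318 to 4059833 counts (median 1812009) against 521492 to 3526674 (median 1233765) in the cells with Ly6c2. In the cells at 0, 3 counts would have been 0.739 to 3.91 CPM, and the cells with Ly6c2 held 33.3 to 4625 CPM. In a single random thinning of every cell to 120834 counts, Ly6c2 was still counted in 10 cells.

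Ly6c1, the second Ly6C gene, was found only beside Ly6c2 among these cells and at far lower levels. It was present in 9 Lyz2-high cells (45%, 23.1 to 68.5%), at 1.79 FPKM in H4, 2.83 in G8, 8.3 in A6, 9.52 in B9, 13.3 in A12, 19.6 in B7, 42.4 in E7, 43.6 in A10 and 168 in C8. E12, which held Ly6c2 at 1690.2 FPKM, was the 1 cell with Ly6c2 and no Ly6c1. The FPKM of Ly6c2 was 5.86 to 781 times that of Ly6c1 in the same cell, with a median of 168 times. In counts, which are not divided by the transcript length that RSEM estimates, Ly6c1 took 0 to 14.3% of the reads of the pair (median 0.456% over 10 cells). The highest shares were 14.3% in A6 (6 of 42 counts, interval 5.43 to 28.5%), 3.12% in C8 (1.9 to 4.63%) and 1.51% in E7 (0.985 to 2.23%), and in the other 7 cells the share was at most 0.616%. These intervals treat amplified reads as independent and cover counting error only, so differences between single cells were not tested.

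**Figure D2:**
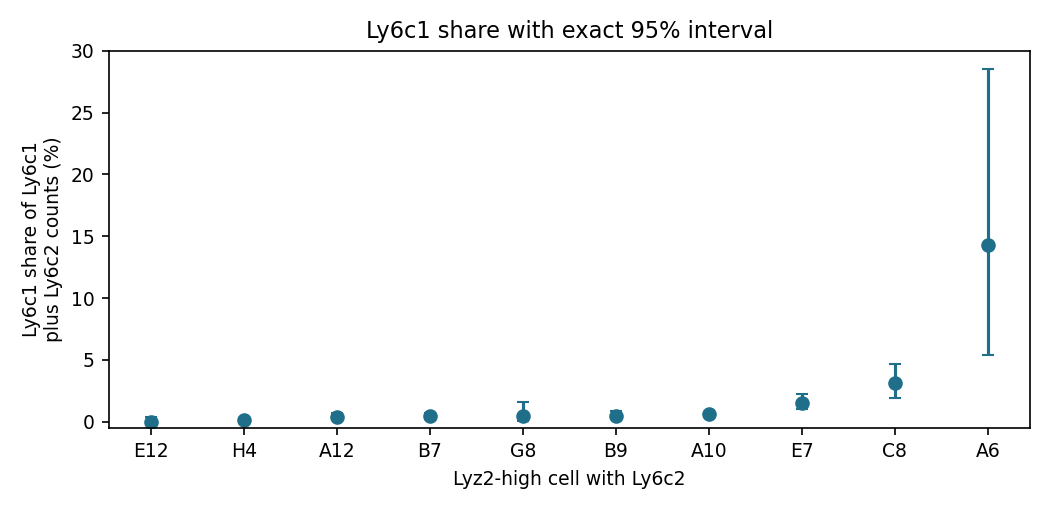
Ly6c1 counts as a percentage of Ly6c1 plus Ly6c2 counts (vertical axis) in each of the 10 Lyz2-high cells with Ly6c2 (horizontal axis), with exact 95% intervals of counting error as bars. The other 7 cells lie at or below 0.616%, C8 and E7 stand above them, and A6, with 42 counts in all, has an interval from 5.43 to 28.5%.

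The FPKM of Ly6c1 also depended on a transcript length that differed between cells. Which transcripts RSEM assigned its reads to was not tested. The length implied by count, FPKM and total counts was 245 bases in C8, 353 in A12 and 424 in E7, against 654 to 672 bases in the other 6 cells, while that of Ly6c2 was 596 to 685 bases in its 10 cells. C8 stood at 168 against 43.6 FPKM in A10, but at 41.2 against 28.6 CPM. Since 8 of 9 Ly6c1 values contained split reads, how much of the Ly6c1 signal came from Ly6c2 transcripts was not tested.

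Ly6a, the Sca-1 gene, was present in 7 Lyz2-high cells (35%, 15.4 to 59.2%), all of them with Ly6c2. Its levels were 1.55 FPKM in E12, 7.67 in B9, 8.21 in C8, 13.2 in A10, 20.7 in A12, 48.3 in E7 and 50.7 in B7. H4 and H5 held 1 count each, at 0.37 and 0.41 FPKM, below the minimum, and H5 is a cell without Ly6c2. The 7 cells are thus low for this gene, whose rank among all genes of the cell had a median of 1614, where that of Ly6c2 was 123.5.

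Ly6g and Ly6i were found in nearly the same cells. Ly6g was present in 7 Lyz2-high cells (35%, 15.4 to 59.2%), at 4.74 FPKM in E12, 6.34 in B7, 10.9 in A6, 20.5 in B9, 24.5 in H4, 26.9 in A12 and 115 in E7. Ly6i was present in 6 of these 7 (30%, 11.9 to 54.3%), at 8.63 FPKM in E12, 13.2 in A6, 15.2 in A12, 16.65 in B9, 22.8 in H4 and 60.5 in E7. E7 was the highest cell and E12 the lowest for both, and all 7 held Ly6c2. For the neutrophil gene Ly6g, this is the gate the label names without a sign, and the sorted Ly6G protein level is not known. The neutrophil genes S100a9, Retnlg, Ltf, Lcn2 and Elane were at 0 FPKM in all 31 cells, and Camp was at 0 in every Lyz2-high cell. Of the 12 neutrophil genes listed, the 7 cells with Ly6g held 0 to 3 each, with a summed level of 0.26 to 812 FPKM, among them the receptor genes Cxcr2 in 5 cells at up to 3.58 FPKM and Csf3r in 3 at up to 122 FPKM, S100a8 in 2 cells at up to 461 FPKM and Mmp8 in 2 at up to 398 FPKM.

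A transcribed pseudogene between Ly6c2 and Ly6g, I830127L07Rik (ENSMUSG00000102051, chromosome 15, 75131377 to 75135128, minus strand), was present in exactly the 6 cells with Ly6i. Its levels were 197 FPKM in A6, 292 in B9, 431 in H4, 488 in E12, 1147 in E7 and 1153 in A12, which is 14.9 to 76.0 times the Ly6i level of the same cell. B7, with Ly6g at 6.34 FPKM from 5 counts and no Ly6i, held none of it. For each 100 counts of the pseudogene these 6 cells held 2.34 to 11.9 counts of Ly6i and 1.34 to 13.9 of Ly6g. Its transcript of 730 bases aligned to Ly6i over 645 bases at 84.7% identity and to Ly6g over 647 bases at 82.7%. Of its 804 windows of 50 bases, 18 also occurred in Ly6i, 20 in Ly6a and 35 in Gm5960, a pseudogene present in 3 of the 6 cells (A12, B9 and E12, at 48.0 to 103 FPKM). Its counts were whole in 5 of the 6 cells, among them A12, E7 and H4, where those of Ly6g and Ly6i were not. Whether reads of I830127L07Rik contributed to Ly6g and Ly6i was not tested. Of the 7 annotated genes between Ly6e and Ly6g that are not members, these 2 were the only ones present in a Lyz2-high cell.

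**Figure D3:**
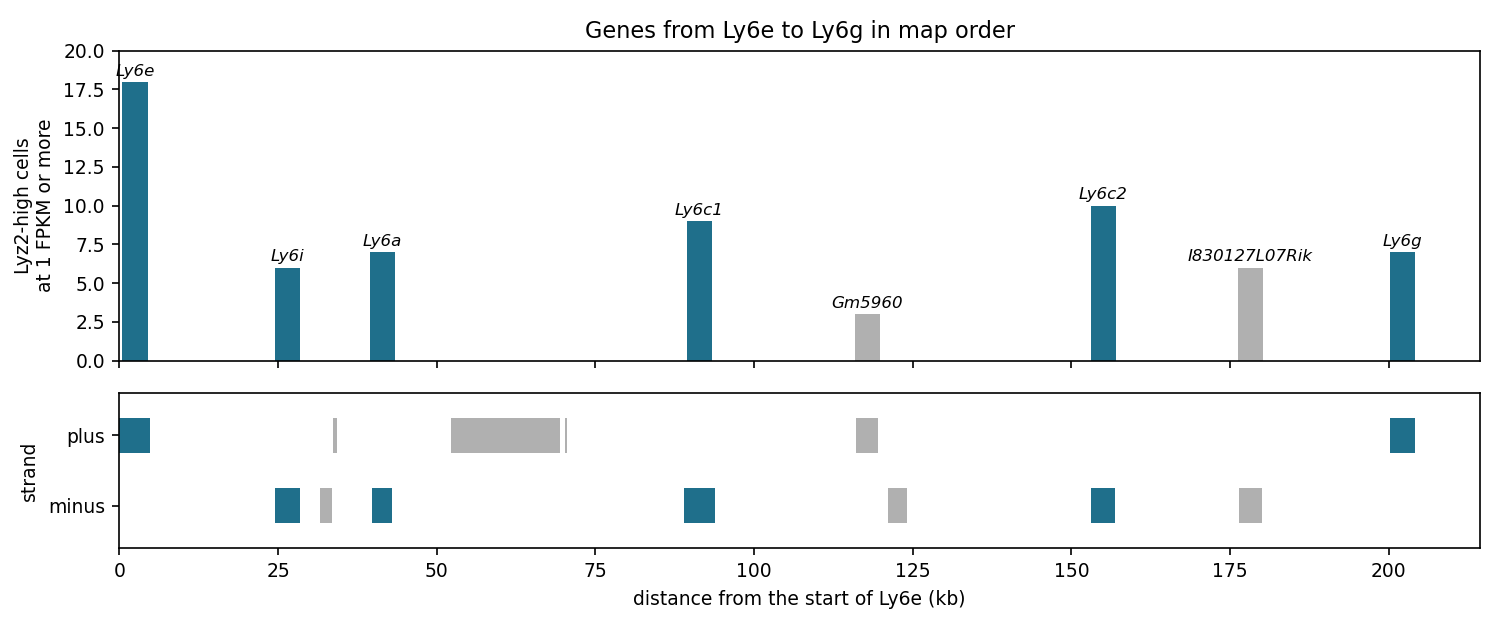
Number of Lyz2-high cells, of 20, with each gene at 1 FPKM or more (upper panel, bars), and gene positions by strand (lower panel), against distance from the start of Ly6e in kb; the 6 Ly6 genes are blue and the other annotated genes grey. Presence does not follow map order: Ly6e at 0 kb was found in 18 cells, its neighbour Ly6i in 6, and the pseudogene I830127L07Rik beside Ly6c2 in 6.

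Co-detection in the Lyz2-high cells was nested. All 9 cells with Ly6c1, all 7 with Ly6a, all 7 with Ly6g and all 6 with Ly6i held Ly6c2, and all 10 with Ly6c2 held Ly6e, while 8 of the 18 cells with Ly6e held no other member. Of the cells with Ly6c2, 90% held Ly6c1, 70% Ly6a, 70% Ly6g and 60% Ly6i. How often other genes found in as many cells also fell only in cells with Ly6c2 was not computed. All 6 genes were present in A12, B9 and E7. Ly6c2, Ly6c1, Ly6a and Ly6e without the other two were present in A10 and C8, and G8 held Ly6c2, Ly6c1 and Ly6e alone. Ly6a and Ly6i were found together in 4 cells, which is 57.1% of the cells with Ly6a and 66.7% of those with Ly6i. Near-identical members share reads, so co-detection of Ly6c1 with Ly6c2 is not independent. The same caution applies to Ly6g and Ly6i, whose counts were not whole in the same 3 cells.

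**Figure D4:**
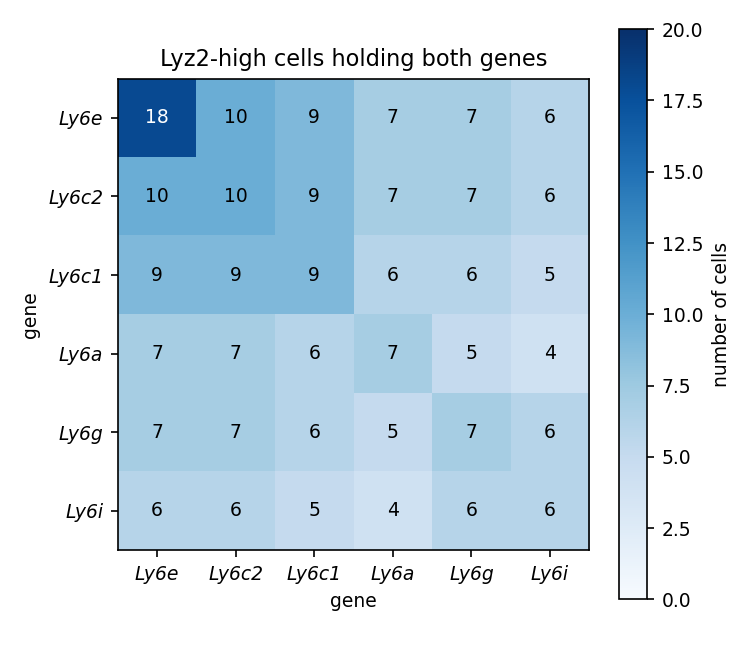
Number of Lyz2-high cells, of 20, that held both the row gene and the column gene at 1 FPKM or more; the diagonal gives the cells with the gene itself. The Ly6c2 row equals the diagonal value for Ly6c1, Ly6a, Ly6g and Ly6i (9, 7, 7 and 6 cells), so none of these 4 genes was present without it.

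Levels followed each other unevenly once presence was set aside. Among the 10 cells with both Ly6c2 and Ly6e, Spearman's rho was 0.90, and Ly6e stood at 0.473 to 1.46 times Ly6c2 except in A6, where it stood at 30.9 times. In cells with both genes rho was 0.67 for Ly6c2 and Ly6c1 (9 cells), 0.29 for Ly6c2 and Ly6a (7 cells), 0 for Ly6c2 and Ly6g (7 cells) and 0.83 for Ly6g and Ly6i (6 cells). It was -0.43 for Ly6e and Ly6g (7 cells) and -0.31 for Ly6e and Ly6i (6 cells). Over all 20 cells the 15 pairs of members had rho from 0.029 (Ly6e and Ly6i) to 0.93 (Ly6g and Ly6i), with a median of 0.49. Many of these points are ties at 0, and the values of a cell share 1 library and its depth, so they are given as a description. Reads may also be shared between Ly6c2 and Ly6c1 and between Ly6g and Ly6i, and their part in rho was not tested. Against total counts of the cell, rho of the 6 genes lay between -0.17 and 0.13, and against Lyz2 between 0.019 and 0.53.

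**Figure D5:**
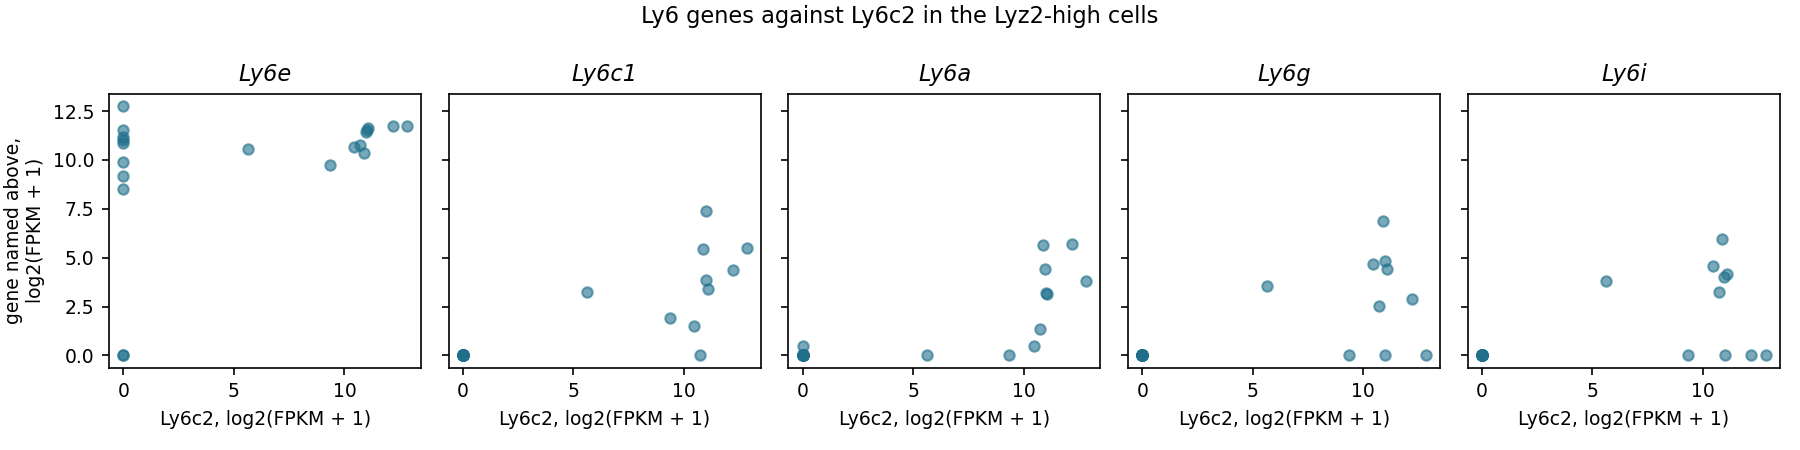
Level of each of 5 Ly6 genes (vertical axes) against Ly6c2 (horizontal axes) in the 20 Lyz2-high cells, both as log2(FPKM + 1), 1 point a cell. Ly6e spans its full range among cells at 0 for Ly6c2, whereas Ly6c1, Ly6a, Ly6g and Ly6i leave the floor almost only where Ly6c2 is present.

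Counted reads show how unequal the members were within a cell. In the 10 Lyz2-high cells with Ly6c2, Ly6e took 37.8 to 96.0% of the counts of the 6 genes (median 64.9%) and Ly6c2 2.2 to 61.7% (median 33.5%). Ly6a, Ly6g and Ly6i together took 0 to 6.92%. A10 was the 1 cell of the 10 in which Ly6c2 exceeded 50%, and E7 was the 1 in which Ly6a, Ly6g and Ly6i together exceeded 2%.

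Cells with Ly6c2 carried most other classical monocyte genes. Of the 12 such genes listed, each of the 10 cells held 9 to 11. Hp, the gene of the hemoglobin-binding plasma protein haptoglobin, was present in 12 Lyz2-high cells, of which 10 held Ly6c2; Plac8 in 13, of which 10 did; and Vcan, the proteoglycan versican, in 8, of which 7 did. The recruitment receptor Ccr2 was present in 16, of which 9 held Ly6c2, S100a4 in 17, of which 10 did, and Cd14 in 17, of which 9 did. The 10 Lyz2-high cells without Ly6c2 held 2 to 11 of the 12 genes. C11 and F10 each held 11 of 12 with Ly6c2 at 0, in libraries of 908472 and 1837295 counts.

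Genes of tissue macrophages were found mostly away from Ly6c2. The complement genes C1qa and C1qb and the mannose receptor gene Mrc1 were each present in 6 Lyz2-high cells and Pf4 in 5, none of them with Ly6c2, while Apoe was present in 18, of which 8 held Ly6c2. Ly6e was present in cells of both kinds. Of the nonclassical monocyte genes, Gngt2 was present in 16 Lyz2-high cells (10 with Ly6c2), Nr4a1 in 13 (6), Itgal in 12 (8) and Cx3cr1, the fractalkine receptor, in 9 (1). The alveolar macrophage list was represented by Chil3 in 12 cells, Ear2 in 3 and 1 further gene, and 9 of its 12 genes were found in no Lyz2-high cell. Chil3 is also on the classical monocyte list, and 9 of its 12 cells held Ly6c2.

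Markers of other cells known to express Ly6a, Ly6c1 or Ly6g were few in the cells with Ly6c2. Of 12 endothelial genes, 2 were found in any Lyz2-high cell, and the cells with Ly6c2 held at most 1 each with a summed level of 0 to 7.52 FPKM; Vwf was the more frequent, in 4 cells. Of 10 T cell genes, 2 were found, with at most 1.57 FPKM in the cells with Ly6c2. No NK cell or epithelial gene (8 each) was present in a Lyz2-high cell, and no B cell or fibroblast gene (8 each) in a cell with Ly6c2. Ighm, the IgM constant region, was present in 7 Lyz2-high cells, none with Ly6c2. Of 8 plasmacytoid dendritic cell genes, Tcf4 was present in 12 Lyz2-high cells (5 with Ly6c2), Runx2 and Bst2 in 3 each.

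Of the other genes of the Ly6/uPAR superfamily, 34 of the 38 listed were in the tables and 3 were present in a Lyz2-high cell. Plaur, the urokinase receptor, was present in 15 Lyz2-high cells, among them all 10 with Ly6c2, at a median of 472 FPKM over the 20 cells and up to 2461 FPKM. Cd177, a GPI-anchored antigen known from neutrophils, was present in 6 cells, all of them with Ly6c2 and 5 with Ly6g, at up to 553 FPKM. Cd59b, an inhibitor of the complement membrane attack complex, was present in 4 cells at up to 54.0 FPKM, 1 of them with Ly6c2. The other 31 genes, among them Ly6d, Ly6k, Psca, Lynx1 and Gpihbp1, were present in none of the 20. Ly6f, named after its values were seen, reached 2605 FPKM in 1 Lyz2-low cell.

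Genes that build and attach the GPI anchor were also read. Of the 27 such genes measured, 21 were present in a Lyz2-high cell but 2 in at least 10 of them, Pigl in 13 and Pign in 10, followed by Dpm1 and Pgap2 in 5 each. Over all 10818 genes present in any Lyz2-high cell, 13.2% were in at least 10 of them. The cells with Ly6c2 held 1 to 4 of the 27. Interferon response genes, the group to which Ly6a and Ly6e are often counted, were found in part. Of 25, 21 were present in a Lyz2-high cell and 4 in at least 10: Ifitm3 and Ifi27l2a in 18 each, of which 10 held Ly6c2, Ifi204 in 13 (8) and Cxcl10 in 11 (6). Isg15, Rsad2, Zbp1 and Gbp2 were present in 3 cells each.

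The genes whose levels ran most like each member over the 20 Lyz2-high cells were ranked by Spearman's rho among 3688 other genes present in at least 5 of them. For Ly6c2 these were H3f3a (a histone H3.3 gene, 0.83), the antioxidant enzyme gene Prdx5 (0.80), Xylt1 (0.79), Rab8b (0.79) and Hp (0.78). For Ly6c1 they were Xylt1 (0.77), Cd177 (0.77), Crb1-ps (0.75), H3f3a (0.75) and Gm9843 (0.74). For Ly6a they were Fnbp4 (0.82), H3f3a (0.81), Ifitm6 (0.75), Fam129b (0.74) and the calcium-binding protein gene S100a6 (0.74). H3f3a thus stood in the first 5 for 3 members, though it was present in all 20 cells.

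For Ly6g and Ly6i the most like gene was I830127L07Rik, at 0.91 and 0.97. It was followed for Ly6g by Gm49342 (0.75), Fnbp4 (0.74), Dynlt1b (0.73) and Vcan (0.72), and for Ly6i by Ifi211 (0.80), Vcan (0.79), Apoc2 (0.74) and Prpf18 (0.74). For Ly6e the values were lower: Lamtor4 (0.73), Gm24979 (0.70), the interleukin 6 receptor gene Il6ra (0.66), Srsf2 (0.63) and Ubxn4 (0.63). Of these 30 places 11 to 18 were kept under the other settings tried.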

How the data were processed

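Single cells were captured on a Fluidigm C1 chip, and polyadenylated RNA was amplified with a SMARTer kit and made into libraries with Nextera XT, per the labels' protocols. This kit does not mark the strand, and no molecular identifiers are described, so amplified copies count as reads. CASAVA 1.8, Trimmomatic and RSEM were used with GRCm38, per the submitters' processing notes; the sources do not give the aligner, annotation release, read length or cell filters. The authors deposited RSEM expected counts, estimated gene by gene and often fractional, and a second table of FPKM values, which the authors scaled to transcript length and mapped fragments. Of 75 count columns, 31 matched sample titles and 44 were not used. Of 47069 genes, 46488 had a symbol in the gene name table.

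A gene was present at 1 FPKM or more. Lyz2-high cells had Lyz2 at 1000 FPKM or more. Shares have exact Clopper-Pearson 95% intervals (SciPy 1.17.1), and the limit of a 0 is 3 counts or 3 cells. Coding frames, the complete frame most transcripts share, were taken from GENCODE M21 and aligned with Biopython 1.88. Transcript windows of 50 and 100 bases were matched on both strands. CPM is the expected count scaled by the total count of the cell to a common library size. The ranking of like genes was tried on simulated data, with planted genes that followed the presence of Ly6c2. The outcome is not given here, and it does not cover the other members. The 31 cells are 1 sample and nothing was tested between groups. The members and the 15 gene lists were chosen with earlier results of these data known. The genes named are the members, Lyz2, the sort genes, the 5 genes most like each member, other Ly6/uPAR genes in at least 3 Lyz2-high cells and the 4 most frequent members of each list. One gene that this rule names is not reported here. Genes named at 0, Gm5960, and the list genes below the fourth place were chosen after their values were seen. The alternatives were other presence minimums, 1 random thinning to 120834 counts, other Lyz2 minimums, CPM, Pearson correlation with pseudocounts of 0.1, 1 and 10, and another gene filter. A limit to coding-rich libraries was also run.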

Additional observations from a re-analysis of the deposited data

How the results depend on the processing

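Of the main counts and summaries under alternative settings, 105 stayed within the limit used (1.5 times for counts) and 14 moved. The 105 include values under the limit to coding-rich libraries, which removed no Lyz2-high cell and so could not move them. With at least 10 expected counts as the minimum, Ly6c1 was found in 5 cells, Ly6a in 4 and Ly6g in 4, both among all cells and among Lyz2-high cells, and together with Ly6c2 in 5, 4 and 4. With 1 expected count as the minimum, 1 Lyz2-high cell (H5, 1 count of Ly6a) held one of Ly6c1, Ly6a, Ly6g and Ly6i without Ly6c2, against 0 as reported. Ly6c2 and Ly6e kept counts within 1.5 times in every setting run. Cells were also lost within that limit. After thinning, Ly6c1 was found in 6 Lyz2-high cells, Ly6a in 5, Ly6g in 6 and Ly6i in 4. As reported, these were 9, 7, 7 and 6 cells, while Ly6c2 stayed at 10 and Ly6e at 18. Of the 30 places among the genes most like a member, 16 were kept with genes in at least 10 cells, 11 with Pearson's r, 18 with a Lyz2 minimum of 100 FPKM and 17 with 5000 FPKM. The cause of these shifts was not tested. The median correlation over the 15 pairs was 0.46 to 0.56, but single pairs moved more: Ly6e and Ly6i, at 0.029 as reported, ranged from 0.0098 to 0.22, and Ly6c2 and Ly6c1, at 0.90, fell to 0.69 with Pearson's r and a pseudocount of 10. A pseudocount cannot change a rank correlation, so pseudocounts were run with Pearson's r. Depth limits the low members: Ly6c1 in 2 cells, Ly6a in 1 and Ly6g in 2 lay below the CPM that 3 counts would be in the shallowest cell at 0. No paired analysis was possible because the cells form 1 group.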
